A study of Mus musculus with 19 samples.

Results

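The genes described here are 31 transcripts of the choroid plexus and the ependyma, the epithelia that make and border the cerebrospinal fluid, measured in RNA from mouse cerebral microvessels. They were chosen by symbol: 19 genes of choroid plexus epithelium and 12 of ependymal cells and motile cilia, of 39179 genes in the deposited count files. The symbols were matched to Ensembl identifiers, and the 31 genes were found, were above 0 in each of the 19 libraries and passed the filter on low counts in each fit. The study sequenced polyadenylated RNA of microvessels of male C57BL/6 mice, bought at 7 weeks of age, after exposure to electronic cigarette aerosol, smoke or room air. The Room-air group (n = 4) breathed room air, the Nic-free group (n = 4) was exposed to an electronic cigarette without nicotine and the Nic group (n = 3) to one with nicotine. The air group (n = 4) carried the same room air label under another title, and the smoke group (n = 4) was exposed to smoke, whose source and dose the labels do not name. No label gives the length of exposure, a genotype, pooling of animals or the brain region, and the control of each exposure was taken from the style of the titles. Nothing in the labels says that the libraries came from separate animals, so p-values reflect no more than how these samples varied, which may be technical.

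The choroid plexus is a fold of vascularised tissue in the brain ventricles. Its epithelium secretes cerebrospinal fluid by moving ions and water and supplies the fluid with carrier proteins, of which transthyretin is the most abundant. The ependyma is the ciliated lining of the ventricles, and its motile cilia, built under the transcription factor Foxj1 and factors of the RFX family, move the fluid. Neither is a part of the endothelial tube of a brain microvessel.

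Levels are given as CPM, the counts of a gene per 1000000 counts assigned to genes in that library. Total counts, in units of 1000000, ran from 25.3 to 30.2 in Room-air, 15.2 to 19.1 in Nic-free, 21.8 to 28.4 in Nic, 9.76 to 13.5 in air and 7.94 to 12.6 in smoke. The share of reads that HTSeq placed in no gene was 30.7 ± 2.27% (SD, n = 4) in Room-air, 42.1 ± 2.58% (SD, n = 4) in Nic-free, 36.4 ± 2.98% (SD, n = 3) in Nic, 35.4 ± 1.63% (SD, n = 4) in air and 30.8 ± 1.84% (SD, n = 4) in smoke. Endothelial transcripts were present: 20 endothelial markers summed to 3373 to 4614 CPM in Room-air, 2398 to 3657 in Nic-free, 3480 to 6235 in Nic, 1603 to 2901 in air and 2916 to 3890 in smoke. Over the 19 libraries, 12 neuronal markers summed to 6431 to 10865 CPM and 10 oligodendrocyte markers to 9292 to 32030 CPM. Both sums were above the endothelial sum in each library, so the endothelial sum does not measure how pure the microvessels were. In bulk RNA, fewer cells of a type and less RNA per cell cannot be told apart, and this holds for each result below.

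Together the 19 choroid plexus genes took 0.14 to 3.70% of the counts of a library. They summed to more than the 20 endothelial markers in 16 of the 19 libraries and to less in Nic-free 4, Nic 1 and smoke 4. Ttr alone made up 58.8 to 81.4% of this sum, and the sum without Ttr ran from 577 to 11977 CPM. With Ttr, the summed level was 23697, 25434, 31586 and 30352 CPM across Room-air 1 to 4 and 23367, 9319, 5609 and 1401 CPM across Nic-free 1 to 4. It was 3163, 9668 and 9313 CPM across Nic 1 to 3, 7404, 4715, 13728 and 29219 CPM across air 1 to 4 and 15023, 4746, 37001 and 2519 CPM across smoke 1 to 4. The 4 Room-air libraries were all high, while each of the other groups held libraries far apart from each other. The 12 ependymal genes summed to much less, 149.5, 123, 129 and 129 CPM across Room-air 1 to 4, 96.9, 73.4, 78.7 and 53.7 across Nic-free 1 to 4, 97.9, 119 and 83.98 across Nic 1 to 3, 69.4, 62.9, 69.7 and 105 across air 1 to 4 and 92.2, 54.4, 174 and 54.7 across smoke 1 to 4.

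Per length of exon, given as TPM (counts per base of exon, scaled to 1000000 per library), Ttr stood first of the 31 genes with a median of 25422 TPM over the 19 libraries. Enpp2, which encodes the lysophosphatidic acid producing enzyme autotaxin and is also made by oligodendrocytes, came next with 1500 TPM. Kcnj13, the potassium channel Kir7.1 of the apical membrane, had a median of 165.8 TPM, and Sostdc1, a secreted antagonist of BMP and Wnt signals, 96.6 TPM. Kcne2, a subunit of potassium channels, had 94.4 TPM, Folr1, the folate receptor alpha, 93.6 TPM, Ace, the angiotensin-converting enzyme, 87.2 TPM, and Clic6, a chloride channel protein, 84.1 TPM. The water channel Aqp1 had 67.7 TPM and Kl, the anti-ageing protein klotho, 66.5 TPM. Of the ependymal genes, Foxj1, the master regulator of motile cilia, had a median of 31.8 TPM, Rarres2, which encodes the chemoattractant chemerin, 31.1 TPM, and Rsph1, a radial spoke protein, 28.8 TPM. Hydin, of the central pair of the cilium, was the lowest per length with 0.803 TPM, and Dnah11, a dynein heavy chain of the outer arm, had 2.78 TPM.

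**Figure D1:**
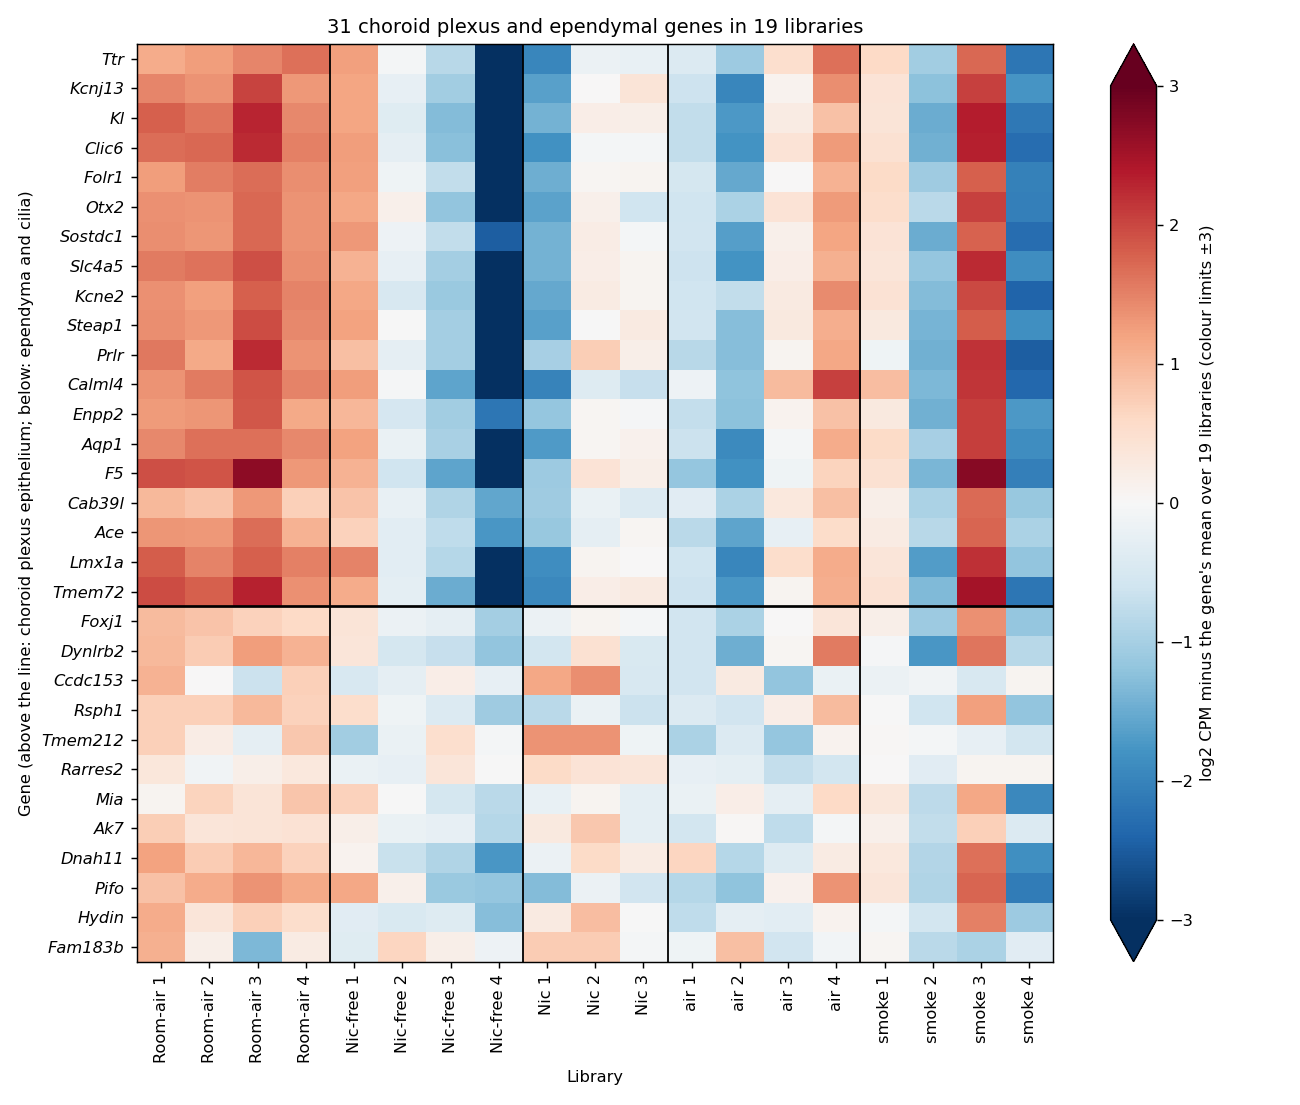
Colour gives log2 CPM minus the gene's mean over the 19 libraries, for 31 genes (rows) in 19 libraries (columns, by group), with colour limits at ±3. The 19 choroid plexus genes above the line share 1 column pattern, darkest blue in Nic-free 4, while Ccdc153, Tmem212, Rarres2 and Fam183b below the line do not show it.

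Ttr, the carrier of thyroid hormone and of the retinol-binding protein, made up 58.8 to 81.4% of the choroid plexus sum. Its level was 16449, 18130.0, 20951 and 23856 CPM across Room-air 1 to 4, 17614, 7213, 4233 and 824 CPM across Nic-free 1 to 4 and 1943, 6685 and 6483 CPM across Nic 1 to 3. In the other set it was 5655, 3572, 10666 and 23796 CPM across air 1 to 4 and 11499.6, 3648, 25024 and 1671 CPM across smoke 1 to 4. The highest library, smoke 3, exceeded the lowest, Nic-free 4, 30.4-fold. Nic-free 1, air 4 and smoke 3 lay inside or above the Room-air range of Ttr, and Nic-free 4, Nic 1 and smoke 4 were the lowest of their groups.

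The same libraries stood out for the other 18 choroid plexus genes. Within Nic-free, replicate 1 was the highest and replicate 4 the lowest library for 19 of 19 genes. Within air, replicate 4 was the highest and replicate 2 the lowest for 19 of 19. Within smoke, replicate 3 was the highest for 19 of 19 and replicate 4 the lowest for 18 of 19, and Nic 1 was the lowest Nic library for 19 of 19. The highest over the lowest library of a group, as the median over the 19 genes, was 1.49-fold in Room-air, 21.4-fold in Nic-free, 3.36-fold in Nic, 6.03-fold in air and 16.6-fold in smoke. A further 24 choroid plexus genes outside the 31, which include Car14, Slc13a4, Slc31a1 and Trpm3, summed to 2155 to 2938 CPM in Room-air, 343 to 1828 in Nic-free, 534 to 1103 in Nic, 501 to 1914 in air and 482 to 3269 in smoke.

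Relative to Ttr, each of the other 18 choroid plexus genes ranged less over the 19 libraries than in its own level, with the log2 ratio ranging by 0.82 for Kcne2 to 2.57 for Cab39l. For each 1000 Ttr counts there were 3.33 to 9.23 counts of Kcnj13, 3.46 to 6.12 of Kcne2 and 4.22 to 9.11 of Folr1. Otx2, a homeobox transcription factor that choroid plexus epithelium depends on, had 1.92 to 3.47 counts for each 1000 of Ttr, a range of 1.81-fold where Ttr itself ranged 30.4-fold. Aqp1 and Slc4a5, a sodium bicarbonate cotransporter, ranged 1.59-fold and 1.61-fold relative to Kcnj13. The widest ratios to Ttr were those of Cab39l, a scaffold protein of the LKB1 kinase complex (5.93-fold), Ace (5.88-fold), F5 (4.60-fold) and Enpp2 (3.49-fold), followed by Lmx1a, Prlr and Kl with ranges of 1.79, 1.70 and 1.60 on the log2 scale. The ratios of Cab39l, Ace and Enpp2 were highest in Nic-free 4, the library lowest in Ttr, and that of F5 in Room-air 3. Enpp2 is also expressed by oligodendrocytes and Ace by endothelium, so their counts need not come from 1 cell type.

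**Figure D2:**
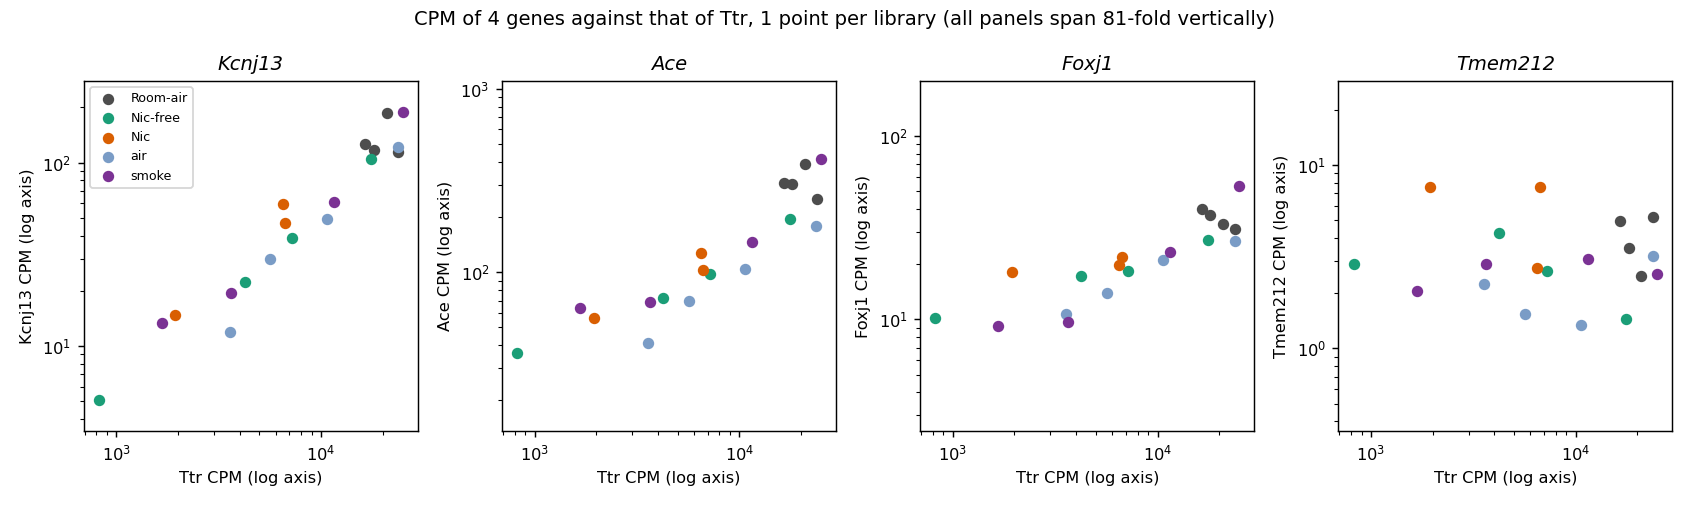
Each point is 1 of 19 libraries, with CPM of Ttr on the horizontal and CPM of Kcnj13, Ace, Foxj1 or Tmem212 on the vertical axis, both logarithmic, coloured by group. Kcnj13 is higher where Ttr is higher over the whole range, Ace and Foxj1 follow less steeply, and Tmem212 does not follow.

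Of the choroid plexus genes that differed most between groups, F5, coagulation factor V, had the widest range. It was at 148, 144, 249 and 94.9 CPM across Room-air 1 to 4, 80.3, 25.6, 13.01 and 3.42 across Nic-free 1 to 4 and 18.3, 51.8 and 43.9 across Nic 1 to 3. Across air 1 to 4 F5 was at 17.3, 10.96, 35.5 and 61.4 CPM, and across smoke 1 to 4 at 53.00, 14.99, 259 and 9.36 CPM. Every Nic-free, Nic and air library lay below every Room-air library, while smoke 3 lay above them all. Tmem72, a transmembrane protein, was at 70.1, 63.4, 89.9 and 47.04 CPM across Room-air 1 to 4, 39.6, 14.9, 6.53 and 1.51 across Nic-free 1 to 4, 4.77, 21.1 and 22.1 across Nic 1 to 3, 11.9, 5.43, 19.3 and 38.9 across air 1 to 4 and 24.6, 7.31, 103 and 4.05 across smoke 1 to 4. Kl was at 451, 401, 641 and 353 CPM across Room-air 1 to 4, 297, 102, 52.9 and 12.2 across Nic-free 1 to 4, 48.8, 151 and 148 across Nic 1 to 3, 78.1, 39.9, 156 and 240.5 across air 1 to 4 and 172, 46.7, 671 and 29.7 across smoke 1 to 4. For Tmem72 and Kl, as for F5, the Nic-free, Nic and air libraries lay below the Room-air range and smoke 3 above it.

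Clic6 was at 243, 251, 359 and 216 CPM across Room-air 1 to 4, 179, 62.5, 31.98 and 8.55 across Nic-free 1 to 4, 21.7, 72.99 and 73.1 across Nic 1 to 3, 45.1, 21.9, 101 and 183 across air 1 to 4 and 104, 27.8, 379.5 and 15.5 across smoke 1 to 4. Calml4, a calmodulin-like protein, was at 29.9, 34.8, 43.7 and 33.2 CPM across Room-air 1 to 4, 28.3, 11.6, 3.92 and 0.789 across Nic-free 1 to 4, 2.94, 9.06 and 7.30 across Nic 1 to 3, 10.6, 5.12, 22.9 and 49.1 across air 1 to 4 and 22.4, 4.66, 52.1 and 2.30 across smoke 1 to 4. Enpp2 was at 4952, 5095, 7436 and 4508 CPM across Room-air 1 to 4, 4069, 1444, 988 and 457 across Nic-free 1 to 4, 912, 2111 and 1994 across Nic 1 to 3, 1251, 864, 2177 and 3777 across air 1 to 4 and 2495, 752, 8516 and 617 across smoke 1 to 4. In air 4 Calml4 exceeded each Room-air library, whereas Clic6 and Enpp2 did not. Of the other choroid plexus genes, Prlr, the prolactin receptor, averaged 209 ± 75.6 CPM (SD, n = 4) in Room-air, the cotransporter Slc4a5 119 ± 20.03 CPM (SD, n = 4), and Steap1, of a family of metalloreductases, 35.04 ± 7.94 CPM (SD, n = 4). Lmx1a, a homeobox transcription factor of the roof plate from which the choroid plexus arises, was the lowest with 6.30 ± 0.758 CPM (SD, n = 4) in Room-air, and its 0.132 CPM in Nic-free 4 rested on 2 counts.

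Ace was at 305, 303, 388 and 250.0 CPM across Room-air 1 to 4, 196, 97.97, 71.9 and 36.4 across Nic-free 1 to 4 and 55.9, 102 and 128 across Nic 1 to 3. Across air 1 to 4 it was at 69.5, 41.1, 104 and 179 CPM and across smoke 1 to 4 at 146, 68.4, 412 and 63.5 CPM. The Nic-free, Nic and air libraries did not overlap Room-air, and smoke 3 exceeded every Room-air library. Exons of Ace overlap those of Gm11651 on the other strand, and how the counting used strand is not given in the sources used here, so its counts are uncertain to that extent. The same holds for 8 more of the 31 genes: Kcnj13, Otx2, Enpp2, F5, Cab39l, Rarres2, Dnah11 and Hydin.

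**Figure D3:**
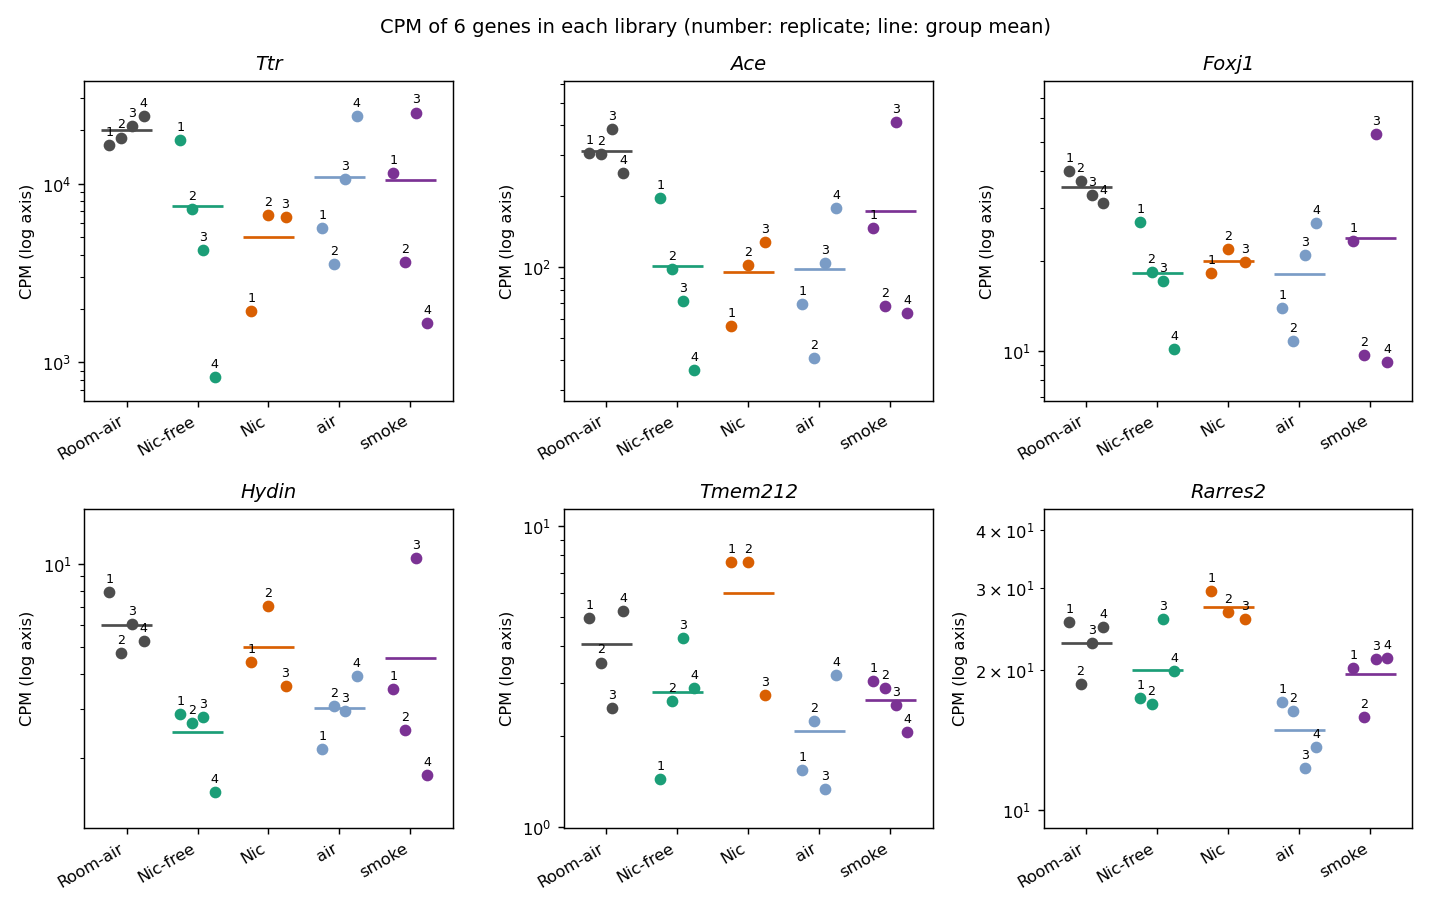
CPM on a logarithmic axis of 6 genes in each library, numbered by replicate, with a line at the group mean. Ttr and Ace spread widely within each group but Room-air, Foxj1 and Hydin spread less and are lower in Nic-free than in each Room-air library, and Rarres2 ranges only 2.41-fold over the 19 libraries.

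The ependymal genes fell into genes that followed the choroid plexus pattern with a smaller range and genes that did not follow it. The highest over the lowest library of a group, as the median over the 12 genes, was 1.42-fold in Room-air, 2.76-fold in Nic-free, 1.86-fold in Nic, 2.59-fold in air and 5.55-fold in smoke. Foxj1 was at 39.9, 37.1, 33.2 and 31.1 CPM across Room-air 1 to 4, 27.03, 18.4, 17.2 and 10.1 across Nic-free 1 to 4 and 18.2, 21.9 and 19.8 across Nic 1 to 3. It was at 13.95, 10.8, 20.98 and 26.7 CPM across air 1 to 4 and 23.3, 9.70, 53.3 and 9.20 CPM across smoke 1 to 4. Every Nic-free, Nic and air library lay below every Room-air library, and within Nic-free, air and smoke the highest library was the one that was highest in Ttr. Foxj1 ranged 5.79-fold over the 19 libraries and 10.97-fold relative to Ttr, with its highest ratio in Nic-free 4.

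Rsph1 was at 16.5, 16.6, 19.9 and 16.2 CPM across Room-air 1 to 4, 14.6, 9.25, 7.63 and 4.80 across Nic-free 1 to 4, 5.78, 8.76 and 6.42 across Nic 1 to 3, 7.63, 6.76, 11.6 and 19.3 across air 1 to 4 and 9.93, 6.68, 23.6 and 4.44 across smoke 1 to 4. Dynlrb2, a dynein light chain, was at 5.002, 4.29, 6.06 and 5.25 CPM across Room-air 1 to 4, 3.29, 1.77, 1.57 and 1.12 across Nic-free 1 to 4, 1.74, 3.48 and 1.87 across Nic 1 to 3, 1.70, 0.922, 2.67 and 7.45 across air 1 to 4 and 2.48, 0.756, 7.79 and 1.43 across smoke 1 to 4. Both were below the Room-air range in each Nic-free and Nic library, and both were higher in air 4 and smoke 3 than in the other libraries of those groups. Hydin was at 7.92, 4.76, 6.06 and 5.29 CPM across Room-air 1 to 4, 2.89, 2.68, 2.82 and 1.51 across Nic-free 1 to 4, 4.45, 7.03 and 3.63 across Nic 1 to 3, 2.16, 3.07, 2.97 and 3.96 across air 1 to 4 and 3.53, 2.52, 10.5 and 1.74 across smoke 1 to 4. Dnah11 was at 19.7, 14.5, 16.98 and 13.9 CPM across Room-air 1 to 4, 9.27, 5.42, 4.60 and 2.57 across Nic-free 1 to 4, 7.52, 12.7 and 10.2 across Nic 1 to 3, 13.4, 4.71, 6.52 and 10.2 across air 1 to 4 and 10.7, 4.66, 27.05 and 2.38 across smoke 1 to 4. Hydin in the Nic libraries lay above each Nic-free library and overlapped Room-air, whereas Dnah11 in Nic stayed below Room-air. Pifo, a protein of the ciliary base, and Mia, a small secreted protein, averaged 5.17 ± 0.672 and 2.16 ± 0.482 CPM (SD, n = 4) in Room-air and 2.51 ± 1.98 and 1.45 ± 0.704 CPM (SD, n = 4) in Nic-free.

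Tmem212, a marker of ependymal cells, behaved differently. It was at 4.94, 3.52, 2.49 and 5.21 CPM across Room-air 1 to 4, 1.45, 2.63, 4.23 and 2.89 across Nic-free 1 to 4, 7.61, 7.57 and 2.75 across Nic 1 to 3, 1.54, 2.25, 1.33 and 3.21 across air 1 to 4 and 3.06, 2.90, 2.54 and 2.06 across smoke 1 to 4. Nic 1 and Nic 2 were the highest of the 19 libraries, and Nic-free 1, where the choroid plexus genes were highest in their group, was the lowest in Nic-free. Ccdc153, a coiled-coil protein of ciliated cells, was at 7.62, 3.72, 2.34 and 6.04 CPM across Room-air 1 to 4, 2.63, 3.03, 4.23 and 3.09 across Nic-free 1 to 4, 8.17, 9.63 and 2.64 across Nic 1 to 3, 2.47, 4.41, 1.63 and 3.21 across air 1 to 4 and 3.25, 3.40, 2.62 and 3.89 across smoke 1 to 4. Its ratio to Tmem212 ranged 2.09-fold, while its ratio to Foxj1 ranged 9.11-fold. Fam183b, a further ependymal marker, lay at 0.435 to 2.32 CPM in Room-air and 0.574 to 1.15 CPM in smoke. Ak7, a ciliary adenylate kinase, lay at 11.2 to 14.3 CPM in Room-air, 4.80 to 9.80 in Nic-free and 7.05 to 15.2 in Nic.

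Rarres2 was the steadiest of the 31 genes, with a range of 2.41-fold over the 19 libraries. It was at 25.3, 18.6, 22.8 and 24.8 CPM across Room-air 1 to 4, 17.4, 16.9, 25.8 and 19.9 across Nic-free 1 to 4 and 29.6, 26.7 and 25.7 across Nic 1 to 3. Across air 1 to 4 it was at 17.04, 16.3, 12.3 and 13.7 CPM and across smoke 1 to 4 at 20.1, 15.9, 21.1 and 21.3 CPM. The 3 Nic libraries lay above the 4 Room-air libraries and the 4 air libraries below them. Chemerin is also made outside the ependyma, and the source of these counts was not tested.

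The promoters of the 31 genes were read from RefSeq on build GRCm38.p6, which gave 14 of the 19 choroid plexus genes and 9 of the 12 ependymal genes. Each window of 300 bases, from 250 before to 50 after the start, was searched on both strands for the RFX half-site GTTGCC and for the longer RFX X-box GTNNCCNNNGNNAC, which overlaps the half-site where both occur. Of 27025 genes, 14.1% held the half-site and 5.26% the X-box. The half-site was in 5 of the 9 ependymal promoters (Ccdc153, Dynlrb2, Fam183b, Hydin and Pifo), in 4 of the 14 choroid plexus promoters (Aqp1, Kcne2, Otx2 and Steap1) in 14 of 30 promoters of further cilia genes and in 1 of 23 of further choroid plexus genes. The X-box was in 2 ependymal promoters (Hydin and Pifo), 1 choroid plexus promoter (Kcne2), 11 of the 30 further cilia promoters and 2 of the 23 further choroid plexus promoters. The sequence TAATCC, the core bound by OTX proteins, was in 2 of 14 choroid plexus promoters (Ace and Otx2), 2 of 9 ependymal promoters (Dnah11 and Pifo), 3 of 23 further choroid plexus and 1 of 30 further cilia promoters, and 8.14% of genes. A match describes the letters only, and no binding was measured. Shown are the bases upstream of the start for Hydin and Dynlrb2, which were lower in Nic-free than in Room-air, for Ccdc153, which followed another pattern, and for Kcne2, a choroid plexus gene with an X-box. They run 5′ to 3′ on the plus strand and end before the first annotated base of the gene, with capitals marking the X-box or half-site found on either strand. The windows lie at chr8:110266727-110266976 (Hydin, which includes exon sequence of Gm26832 on the other strand), chr8:116504765-116504973 (Dynlrb2), chr9:44240427-44240675 (Ccdc153) and chr16:92292139-92292388 (Kcne2).
Hydin: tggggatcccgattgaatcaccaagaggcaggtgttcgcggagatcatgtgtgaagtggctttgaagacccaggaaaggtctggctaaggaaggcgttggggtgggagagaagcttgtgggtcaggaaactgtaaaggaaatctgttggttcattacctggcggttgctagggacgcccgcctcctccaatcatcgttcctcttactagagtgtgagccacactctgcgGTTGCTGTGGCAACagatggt
Dynlrb2: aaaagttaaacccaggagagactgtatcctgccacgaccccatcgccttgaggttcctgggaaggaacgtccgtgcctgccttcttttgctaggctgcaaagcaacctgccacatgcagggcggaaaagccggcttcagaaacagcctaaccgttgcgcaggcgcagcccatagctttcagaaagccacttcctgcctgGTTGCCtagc
Ccdc153: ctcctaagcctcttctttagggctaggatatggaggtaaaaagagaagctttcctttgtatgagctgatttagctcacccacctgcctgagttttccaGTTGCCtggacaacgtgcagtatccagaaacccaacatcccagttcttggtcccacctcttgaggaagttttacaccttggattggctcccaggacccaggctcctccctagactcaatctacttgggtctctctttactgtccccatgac
Kcne2: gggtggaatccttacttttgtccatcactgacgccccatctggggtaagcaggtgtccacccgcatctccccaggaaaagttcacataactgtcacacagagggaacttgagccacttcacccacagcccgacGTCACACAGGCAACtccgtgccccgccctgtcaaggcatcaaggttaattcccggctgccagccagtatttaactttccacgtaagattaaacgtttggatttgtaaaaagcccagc

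Nicotine-free aerosol against room air asks what the vehicle of an electronic cigarette does without nicotine. Of the 31 genes, 6 fell in Nic-free against the Room-air set: the ciliary genes Foxj1, Rsph1, Dynlrb2, Hydin and Dnah11, and the choroid plexus gene Ace. The log2 fold change was −0.91 ± 0.22 (SE, adjusted p = 0.0128) for Foxj1 by edgeR's quasi-likelihood test, −0.88 ± 0.26 (SE, adjusted p = 0.0306) for Rsph1 and −1.36 ± 0.29 (SE, adjusted p = 0.00577) for Dynlrb2. It was −1.22 ± 0.25 (SE, adjusted p = 0.00440) for Hydin, −1.52 ± 0.30 (SE, adjusted p = 0.00528) for Dnah11 and −1.57 ± 0.48 (SE, adjusted p = 0.0468) for Ace. No gene rose: 0 of 31 passed upward, 0 had an unadjusted p under 0.05 upward and DESeq2 called 0 upward. By role, 5 of 12 genes of ependyma and motile cilia and 1 of 19 choroid plexus genes were lower. Of the 17235 genes tested, 10.4% were lower and 11.3% higher. The ependymal markers Tmem212, Ccdc153 and Fam183b did not pass. Ccdc153 stood at −0.55 ± 0.43 (SE, adjusted p = 0.394) and Fam183b at −0.09 ± 0.40 (SE, adjusted p = 0.892) by edgeR. The log2 CPM of Foxj1, Rsph1, Dynlrb2, Hydin and Dnah11 correlated with that of Ttr over the 19 libraries. The r values were 0.87, 0.95, 0.85, 0.68 and 0.82, against −0.06, −0.17 and −0.20 for Tmem212, Ccdc153 and Fam183b. Whether the ciliary transcripts came from ependyma or from choroid plexus was not tested. The median log2 fold change was −0.77 over the ependymal genes and −1.60 over the choroid plexus genes, against 0.0042 over the genes tested.

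The choroid plexus genes had the larger differences and, for 18 of 19, did not pass. Ttr was at −1.35 ± 0.78 (SE, adjusted p = 0.252) on the log2 scale, F5 at −2.32 ± 0.80 (SE, adjusted p = 0.0717) and Tmem72 at −2.06 ± 0.79 (SE, adjusted p = 0.0978), and Rarres2 was at −0.14 ± 0.13 (SE, adjusted p = 0.463). In CPM, the 4 Nic-free libraries lay below the 4 Room-air libraries for 16 of the 19 choroid plexus genes and 6 of the 12 ependymal genes, against 15.6% of genes tested. The choroid plexus genes moved together over the libraries, with r to Ttr from 0.91 for Ace to 0.99 for Calml4. Counts of them are therefore not separate results, here or below. Ttr, Cab39l and Lmx1a overlapped through Nic-free 1. Without Nic-free 1, 25 of the 31 genes were lower by edgeR's test, 17 of them choroid plexus genes, with 1829 genes lower of 17212 tested, and F5 then stood at −3.43 ± 0.69 (SE, adjusted p = 0.0123). Without any one of the other 7 libraries 4 or 5 genes were lower: Ace did not pass in any of the 7, with adjusted p from 0.0549 to 0.1095, and Rsph1 passed in 1 of them, without Nic-free 4. Over all genes, lower calls in these 7 fits ran from 1028 of 17212 without Nic-free 2 to 1557 of 17028 without Room-air 4. In the fit of 19 libraries 1 gene was lower, Hydin, with 1595 lower of 16557 genes tested. DESeq2 called 13 lower, with 2129 lower of 17235 genes tested. With the air set as control, 0 of 31 genes passed by edgeR in either direction, 0 had an unadjusted p under 0.05 downward and 1 upward, and Ace and Foxj1 stood at 0.03 and 0.0015 on the log2 scale, so each of the 6 calls was lost. Of the 16557 genes tested with that control, 211 were lower and 488 higher.

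Other marker lists moved in the same comparison. Of 33 further cilia genes tested, 9 were lower by edgeR's test, with a median log2 fold change of −0.78, among them the radial spoke gene Rsph4a at −1.57 ± 0.29 (SE, adjusted p = 0.00344) and the dynein gene Dnah6 at −1.82 ± 0.32 (SE, adjusted p = 0.00372). Of 24 further choroid plexus genes, 4 were lower (Car14, Slc31a1, Trpm3 and Slc13a4), with a median of −1.28. Of the endothelial markers 7 of 20 were lower, while 8 of 12 neuronal and 7 of 10 oligodendrocyte markers were higher. The summed oligodendrocyte markers were at 18847 to 20682 CPM in Nic-free against 12834 to 15461 in Room-air, and the neuronal markers at 9455 to 10865 against 6932 to 7616. The part of these shifts, and of the higher share of reads in no gene, in the ependymal and choroid plexus differences was not tested.

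**Figure D4:**
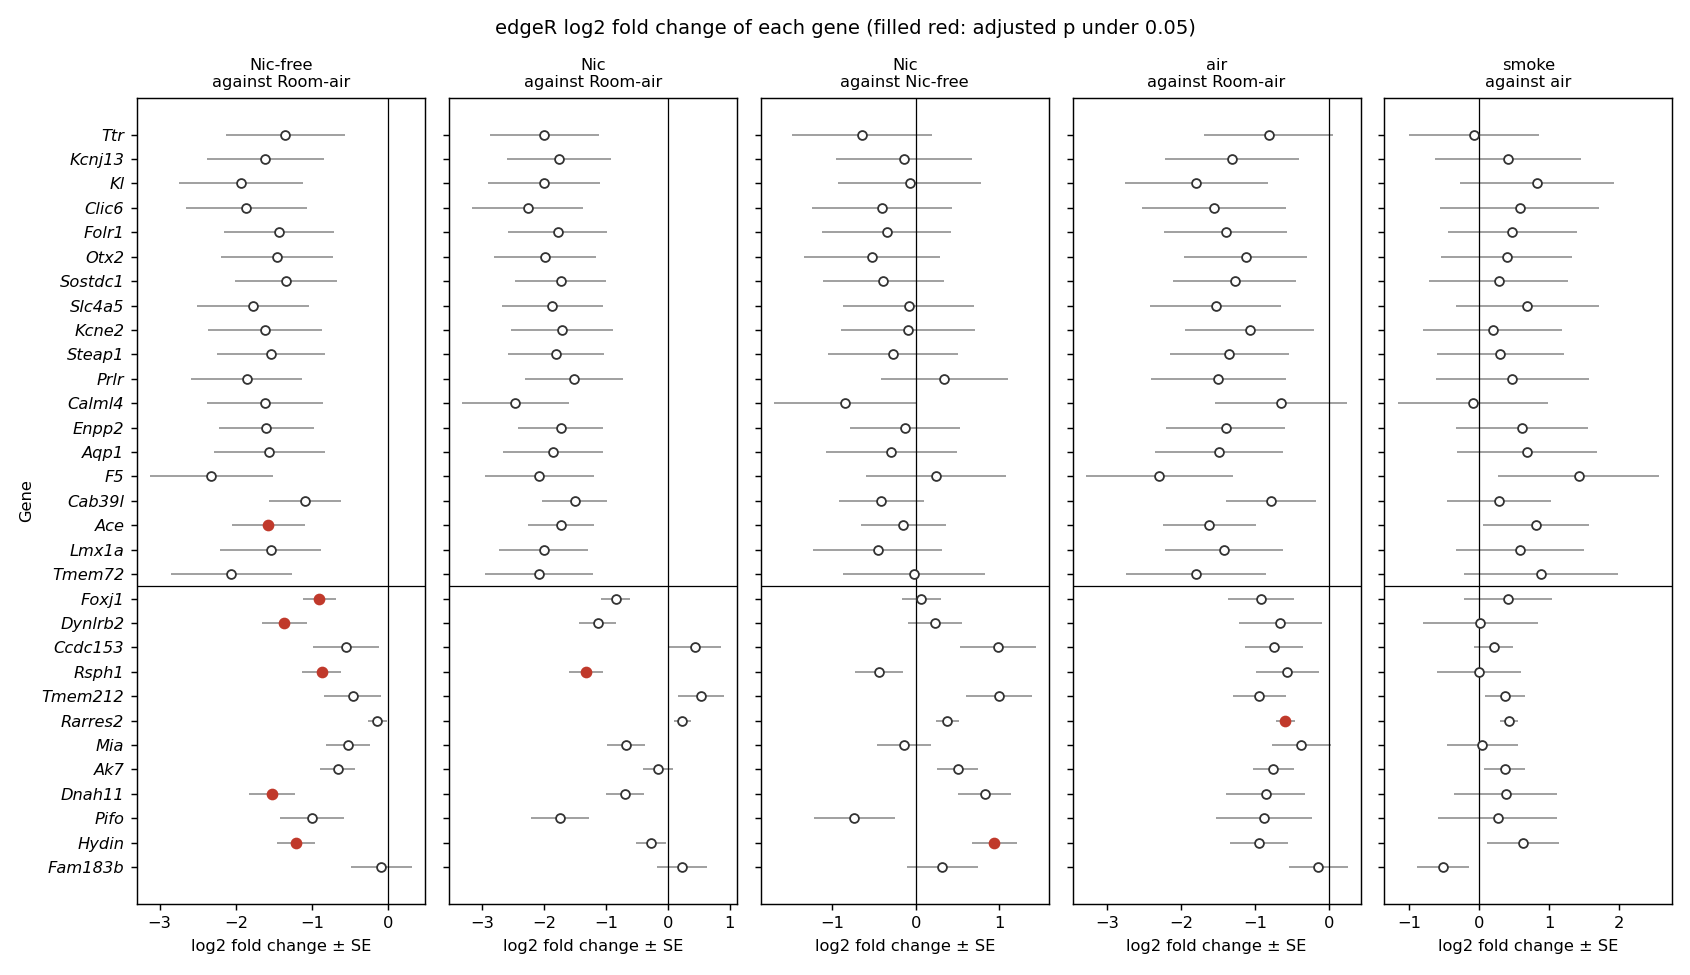
log2 fold change with its standard error (bars) by edgeR for the 31 genes in 5 comparisons, with genes past an adjusted p of 0.05 filled. The choroid plexus genes above the line lie left of 0 in the first, the second and the fourth panel with wide bars, and only Ace among them is filled, in Nic-free against Room-air.

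Aerosol with nicotine was compared with the same Room-air libraries, so the comparisons share their controls and are given side by side. In Nic, 1 of 31 genes fell, Rsph1, by −1.32 ± 0.28 (SE, adjusted p = 0.0308) on the log2 scale with edgeR. Of the choroid plexus genes 0 of 19 passed in edgeR, although 13 had an unadjusted p under 0.05 and lower values and DESeq2 called 3 lower. By edgeR's adjusted p, 2.67% of the genes tested were lower and 1.22% higher in this comparison. An unadjusted p under 0.05 in edgeR was met by 4201 of 17235 genes, both directions together. DESeq2 called 980 of these 17235 genes lower and 665 higher. The median log2 fold change was −1.86 over the choroid plexus genes, from −2.46 to −1.50, and −0.47 over the ependymal genes, against 0.028 over the genes tested. Ttr stood at −1.995 ± 0.88 (SE, adjusted p = 0.208), Calml4 at −2.46 ± 0.86 (SE, adjusted p = 0.128) and Clic6 at −2.27 ± 0.89 (SE, adjusted p = 0.163). Foxj1 stood at −0.84 ± 0.23 (SE, adjusted p = 0.0633) and Rarres2 at 0.23 ± 0.14 (SE, adjusted p = 0.317).

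In CPM each Nic library lay below each Room-air library for 19 of 19 choroid plexus genes and 5 of 12 ependymal genes (Foxj1, Dynlrb2, Rsph1, Dnah11 and Pifo), against 8.8% of genes tested. Because the choroid plexus genes moved together, the 19 are not separate results. The 3 Nic libraries lay above Room-air for 1 gene, Rarres2, against 8.19% of genes tested. The Rsph1 call was lost without any 1 of the 4 Room-air libraries and without Nic 1, with adjusted p values of 0.0523 to 0.209. Over all genes, calls were 0 lower and 0 higher of 17015 without Room-air 2 and of 17516 without Nic 1. They were 95 lower and 16 higher of 17007 without Room-air 1. Without Room-air 3 they were 237 and 121 of 17069, and without Room-air 4 they were 221 and 103 of 17028. With the air set as control, 0 of 31 were lower and 3 were higher by edgeR: Rarres2 at 0.80, Tmem212 at 1.44 and Ccdc153 at 1.15 on the log2 scale. Of the 16557 genes tested with that control, 2421 were lower and 2540 higher. Among the further lists 5 of 33 cilia genes were lower, with Rsph9 at −0.99 ± 0.18 (SE, adjusted p = 0.0197), and 1 of 24 choroid plexus genes, Car14, at −0.89 ± 0.20 (SE, adjusted p = 0.0334). The 20 endothelial markers had a median log2 fold change of 0.31 and a lowest adjusted p of 0.0641 in edgeR, and the part of such shifts was not tested.

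Nic against Nic-free asks what nicotine adds to the aerosol. Of the 31 genes 1 rose, Hydin, by 0.94 ± 0.27 (SE, adjusted p = 0.0192) on the log2 scale with edgeR, and it was also the 1 gene whose Nic libraries all lay above the Nic-free libraries, as 20.7% of genes tested did. Lower calls were 0, with 0 at an unadjusted p under 0.05 and 0 by DESeq2, against 12.4% of genes lower and 12.4% higher. Tmem212 stood at 1.001 ± 0.39 (SE, adjusted p = 0.0823), Ccdc153 at 0.98 ± 0.46 (SE, adjusted p = 0.138) and Rarres2 at 0.38 ± 0.14 (SE, adjusted p = 0.0622). The 19 choroid plexus genes had a median of −0.27 and 0 calls in edgeR, 0 at an unadjusted p under 0.05 and 0 in DESeq2, with Ttr at −0.64 ± 0.84 (SE, adjusted p = 0.621), and Foxj1 stood at 0.07 ± 0.24 (SE, adjusted p = 0.868). The choroid plexus median turned to 0.63 without Nic-free 1 and to 0.12 without Nic 1. The Hydin call was lost without Nic 2, at 0.61 with an adjusted p of 0.104, and in the fit of 19 libraries, at 0.93 with an adjusted p of 0.109. In that fit of 19 libraries 1 other gene of the 31 passed upward, with 2111 of 16557 genes higher. Without Nic 3 there were 4 higher calls (Hydin, Ak7, Tmem212 and Ccdc153), without Nic-free 3 there were 3 (Hydin, Rarres2 and Tmem212) and without Nic-free 1 there were 2 (Hydin and Dnah11). Over all genes, 2423 of 17304 were higher without Nic 3, 1630 of 17212 without Nic-free 3 and 1872 of 17212 without Nic-free 1. Of the 33 further cilia genes 3 were lower (Ccno at −0.70, Efcab10 at −1.05 and Rsph9 at −0.55 on the log2 scale) and 1 was higher, Drc1, at 0.42. In the same comparison 12 of 20 endothelial and 4 of 10 pericyte and smooth muscle markers were higher and 7 of 10 oligodendrocyte markers and 6 of 12 neuronal markers were lower, and the part of these shifts in the Hydin difference was not tested.

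Smoke against the air set gave no call among the 31 genes. In edgeR 0 of 31 were lower and 0 higher, against 0.519% and 1.08% of 15232 genes tested; unadjusted p under 0.05 was met by 0 downward and 1 upward, Rarres2, and DESeq2 called 0. No gene had groups that did not overlap in CPM, where 5.84% of genes tested lay below and 5.48% above. Ttr stood at −0.07 ± 0.93 (SE, adjusted p = 0.978) on the log2 scale, F5 at 1.42 ± 1.16 (SE, adjusted p = 0.558), Tmem72 at 0.89 ± 1.10 (SE, adjusted p = 0.717), Foxj1 at 0.41 ± 0.63 (SE, adjusted p = 0.775) and Rarres2 at 0.42 ± 0.13 (SE, adjusted p = 0.0985). The median was 0.48 over the choroid plexus genes, with both groups spread as widely as given above. Without smoke 3 that median became −0.70, and without air 4 it became 1.10. Endothelial markers had 4 higher calls of 20, and their part in these values was not tested.

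The air set and the Room-air set carry the same exposure label and differ in title and depth, and they were compared in a fit of 19 libraries. Of the 31 genes 1 was lower in air, Rarres2, by −0.59 ± 0.13 (SE, adjusted p = 0.00398) on the log2 scale with edgeR, a call that held in the 14 alternatives run, with adjusted p from 0.000503 to 0.0203. No gene was higher: 0 passed, 0 had an unadjusted p under 0.05 upward and DESeq2 called 0, against 12.0% of 16557 genes tested that were lower and 10.7% that were higher. In CPM the air libraries lay below Room-air for 13 of 19 choroid plexus genes and 5 of 12 ependymal genes, against 16.5% of genes tested. Here too the choroid plexus genes moved together, so the 13 are not separate results. Ttr stood at −0.82 ± 0.88 (SE, adjusted p = 0.525), F5 at −2.30 ± 1.00 (SE, adjusted p = 0.109), Kl at −1.80 ± 0.97 (SE, adjusted p = 0.194) and Foxj1 at −0.92 ± 0.45 (SE, adjusted p = 0.146), and the median was −1.40 over the choroid plexus genes and −0.75 over the ependymal genes. Without air 4 the lower calls were 3 (Rarres2, Ace and Tmem212), with 1776 of 16680 genes lower. Without Room-air 3 they were 2 (Rarres2 and Tmem212), with 1515 of 16523 genes lower. Beside these values 14 of 20 endothelial, 5 of 12 fibroblast and meningeal, 5 of 10 pericyte and smooth muscle and 4 of 33 further cilia genes were lower, and 6 of 10 oligodendrocyte and 4 of 12 neuronal markers higher; their part was not tested.

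The smoke and electronic cigarette effects, each against its own air set, share no library and were compared directly in the fit of 19 libraries. Smoke minus Nic-free passed upward for 2 of 31 genes in edgeR, Rarres2 at 0.57 ± 0.19 (SE, adjusted p = 0.0345) and Hydin at 1.85 ± 0.57 (SE, adjusted p = 0.0292) on the log2 scale, and downward for 0, with 0 at an unadjusted p under 0.05 downward and 0 by DESeq2. The contrast includes the gap between the air sets, where Rarres2 stood at −0.59 and Hydin at −0.95 in air against Room-air. Of the genes tested, 10.3% were lower and 11.2% higher in that contrast. In it 14 of 20 endothelial, 4 of 10 pericyte and smooth muscle, 6 of 33 further cilia and 1 of 24 further choroid plexus genes passed upward, and 8 of 10 oligodendrocyte and 7 of 12 neuronal markers downward; the part of these shifts in the Rarres2 and Hydin differences was not tested. The count of 2 became 0 without Room-air 1, without Nic-free 4, without air 3 or without smoke 3. It became 1 without Room-air 4, Nic-free 2, air 1 or smoke 1, 4 without Nic-free 1, and 5 without smoke 2 or smoke 4. Without air 4 it was 3. Over all genes, higher calls in these fits ran from 1332 of 16681 without Nic-free 4 to 1902 of 16680 without smoke 2. Smoke minus Nic gave 0 of 31 in either direction in edgeR, with 3 at an unadjusted p under 0.05 upward, 0 downward and 0 by DESeq2, against 2.8% of genes lower and 2.78% higher.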

How the data were processed

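The deposited values are whole read counts for each Ensembl gene. STAR, HTSeq and build mm10 are named, per the submitters' processing notes; their versions, and the strand and feature settings of HTSeq, are not given in the sources used here. The labels give single-end reads of 80 nt from strand-specific libraries. The 5 summary lines of each file were kept out of totals and tests, and the reads in no gene were 28.7 to 45.2% of a file. Symbols were matched for 37607 of 39179 identifiers, and positions and exon lengths are from GENCODE M21 (GRCm38).

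Tests used edgeR 4.0.16 in R 4.3.3 on the counts: filterByExpr, TMM, robust glmQLFit and a two-sided glmQLFTest. The p-values were adjusted by Benjamini-Hochberg over each fit's genes, and 0.05 was the threshold. Room-air, Nic-free and Nic (11 libraries) shared 1 fit, air and smoke another of 8 libraries, and the remaining comparisons used all 19. Alternatives were DESeq2 1.42.0, RLE size factors, total counts, no filter, no robust estimation, the replicate number as a block, the other air set as control, 1 fit of 19 libraries and leaving out each library. The fits were also run on simulated counts with known changes, drawn independently for each gene. Those counts lack the shared swings between libraries of the choroid plexus genes, so they do not show how the tests behave for them. Libraries were grouped by title.

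The 31 genes and the marker lists were chosen with earlier results of these data known. Values in each library are given for genes past the threshold in any of the first 5 comparisons, the 3 of highest mean CPM in each role and the 2 of largest fold change per comparison, 16 genes in all. Other lists named in the tests are 10 striatal neuron genes, of which 2 were higher in Nic-free and 1 lower in Nic against Room-air, 2 lower and 1 higher in Nic against Nic-free and 1 lower in smoke minus Nic-free, and 10 pericyte and smooth muscle genes, of which 1 was lower in Nic-free and 1 higher in Nic against Room-air, besides the comparisons where the report gives them. Counting error is a lower limit of the error here, because no molecular identifiers separate copies of a molecule.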

Additional observations from a re-analysis of the deposited data

Results flagged for a closer look

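Within groups of 4 libraries, the 16 genes given in each library were searched for a library far from the other 3 (64 groups, by Dixon's test at the 95% level), where chance gives about 1 in 20. Hydin in Nic-free 4 stood apart below the others at 1.51 CPM. Rsph1 in Room-air 3 stood apart above the others at 19.9 CPM.

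The smoke effect differed from the Nic-free effect, by a test of the difference itself in edgeR over 19 libraries, for 2 of the 31 genes. Both were higher, as were 11.2% of the 16557 genes tested. Rarres2 differed by 0.57 on the log2 scale, with means of 19.6 ± 2.52 CPM (SD, n = 4) in smoke and 14.8 ± 2.21 (SD, n = 4) in air against 20.01 ± 4.06 (SD, n = 4) in Nic-free and 22.9 ± 3.03 (SD, n = 4) in Room-air. Hydin differed by 1.85, with 4.57 ± 4.01 CPM (SD, n = 4) in smoke, 3.04 ± 0.738 (SD, n = 4) in air, 2.48 ± 0.649 (SD, n = 4) in Nic-free and 6.01 ± 1.38 (SD, n = 4) in Room-air. In air against Room-air, Rarres2 stood at −0.59 ± 0.13 (SE, adjusted p = 0.00398) and Hydin at −0.95 ± 0.40 (SE, adjusted p = 0.0905) by edgeR. This gap between the air sets enters the difference, and its part was not tested. The Rarres2 call was lost in 10 of 22 alternatives, with adjusted p up to 0.0772, and the Hydin call in 6 of 22. Markers of endothelium, pericytes, oligodendrocytes and neurons passed in the same contrast, and their part was not tested. Smoke 3 held the highest Hydin level of the smoke group, and without it the difference was 1.02 with an adjusted p of 0.0864.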

How the results depend on the processing

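Counts of members past the threshold depended on the processing. For Nic-free against Room-air, the 6 lower genes became 13 with DESeq2, 12 without robust estimation, 1 in the fit of 19 libraries, 0 with the air set as control and 4 to 25 when 1 library was left out, the 25 without Nic-free 1. For Nic against Room-air, the 1 lower gene became 7 with DESeq2, 2 with RLE size factors, 2 with total counts, 3 without robust estimation, 0 in the fit of 19 libraries and 0 with the air set as control, where 3 were higher; leaving out 1 library gave 0 to 2. For Nic against Nic-free, the 1 higher gene became 3 with DESeq2, 2 with total counts, 2 without a filter and 0 to 4 when 1 library was left out. For air against Room-air, the 1 lower gene became 4 with DESeq2, 3 without robust estimation and 1 to 3 when 1 library was left out. For smoke minus Nic-free, the 2 higher genes became 5 with DESeq2, 1 without a filter, 4 without robust estimation and 0 to 5 when 1 library was left out. The cause was not tested. Over all genes, lower calls for Nic-free against Room-air were 1799 in the fit given first, 2129 with DESeq2 and 1854 without robust estimation. For Nic against Room-air they were 460, 980 and 471, with 495 by RLE size factors and 467 by total counts. Higher calls for Nic against Nic-free were 2131 first, 2332 with DESeq2, 3079 with total counts and 1983 of 26833 without a filter. Lower calls for air against Room-air were 1984, 2135 with DESeq2 and 2023 without robust estimation. Higher calls for smoke minus Nic-free were 1856, 2117 with DESeq2, 1455 of 27448 without a filter and 1898 without robust estimation. Among the 31 genes, smoke against air stayed at 0 lower and 0 higher in each alternative run.

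Over all 31 genes, the direction turned for 27 in smoke with Room-air as control, 7 in Nic-free and 5 in Nic with the air set as control, 23 in smoke against air without smoke 3, and 18 and 10 in Nic against Nic-free without Nic-free 1 and without Nic 1. Single genes that turned include the following. With the air set as control, Nic-free gave 0.029 for Ace, 0.0015 for Foxj1 and 0.44 for Rarres2 on the log2 scale, Nic gave 0.056 for Foxj1, and smoke against Room-air gave −0.89 for F5, −0.52 for Foxj1, −0.18 for Rarres2 and −0.93 for Tmem72. In Nic against Nic-free, Foxj1 turned to −0.13 without Nic-free 4 and −0.012 without Nic 2, and Ttr to 0.23 without Nic-free 1; with 1 library left out they ran to 0.32 and −1.02 at the other end. In smoke against air, F5, Foxj1 and Tmem72 turned to −0.28, −0.35 and −0.65 without smoke 3, and Ttr to 0.65, 0.19 and 0.26 without air 4, smoke 2 and smoke 4. At the other end of leaving out 1 library stood 1.96 for F5, 0.67 for Foxj1, 1.49 for Tmem72 and −0.96 for Ttr. None of the turned values passed the threshold.

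In the fit of 19 libraries, correlations of same-numbered libraries ran from −0.40 to 0.44 and of differently numbered ones from −0.50 to 0.57. Their means were −0.019 and 0.0064. Such ranges cannot exclude a pairing by number, and the tests given first used none. With the replicate block, Nic-free against Room-air had 6 lower genes, without Ace (−1.73, adjusted p = 0.0719), Nic against Room-air had 2, and Foxj1 in Nic against Nic-free was at −0.012. Depth limits the low genes most: Lmx1a rested on 2 counts in Nic-free 4.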
